A study of Mus musculus with 20 samples.

Results

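Mitogen-activated protein kinase (MAPK) phosphatases and genes of the p38 kinase pathway were followed in T cells depleted of the Id proteins Id2 and Id3. The set was chosen by gene symbol, with earlier results of these data known, and holds 9 of the 39179 genes of the deposited table. These are the dual-specificity phosphatases *Dusp2*, *Dusp4*, *Dusp5*, *Dusp6* and *Dusp10*, the MAPK kinases *Map2k3* and *Map2k6*, and the p38 kinases *Mapk11* and *Mapk14*. RNA was sequenced from 20 samples of C57BL/6 background in 5 groups. The double knockout (dKO) group was 3 samples of CD4 single-positive (CD4SP) thymocytes sorted as CD4+TCRb+CD8– and labelled Id2_Id3_dKO. In the study these came from young adult mice with floxed *Id2* and *Id3* alleles and *IL7R*-Cre, in which Cre is active from lymphoid progenitors onwards. A second group was 3 CD4SP samples of the same thymic sort labelled Id3 KO. Another was 3 wild-type samples of follicular helper T (TFH) cells, sorted from spleen as CD4+TCRb+CD44highCXCR5+, obtained in the study after immunization with sheep red blood cells. The lymphoma group was 6 samples labelled Id2_Id3_dKO, 4 from lymph node, 1 from spleen and 1 from thymus, of which 4 were sorted as CD3+TCRb+CD4+ and 2 as CD3+TCRb+CD8+. The labels name neither the Cre line nor the age behind each lymphoma. The control group was 5 samples of CD4SP thymocytes of the same thymic sort, labelled wild type. The study's text describes the control thymi as *Id3*+/- in part, and whether these 5 samples carry 1 or both *Id3* alleles cannot be told from the labels and bears on the *Id3* value of control CD4SP cells and on each ratio to it.

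MAPK cascades pass signals from the T cell receptor and from stress through a MAPK kinase kinase and a MAPK kinase (MAP2K) to a MAPK, which phosphorylates transcription factors and further kinases. MAPKs fall into the ERK, JNK and p38 families, and dual-specificity phosphatases (DUSPs) switch them off by removing phosphate from a threonine and a tyrosine of the activation loop. In thymocytes ERK activity is known for its part in positive selection. Id2 and Id3 are inhibitors of E proteins, transcription factors that bind the E box, CANNTG.

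The promoters of 4 of these genes are shown because *Dusp10*, *Map2k6* and *Mapk11* were the genes at least 2-fold lower in the lymphomas and *Dusp2* was the phosphatase with the highest level per kilobase in 4 of the 5 groups, as described further on. Sequences are from RefSeq on GRCm38.p6, run from 250 bases before to 50 bases after the transcription start, and are written 5′ to 3′ on the strand of the gene. They lie at chr1:184034131-184034430 (plus strand), chr11:110398852-110399151 (plus strand), chr15:89149557-89149856 (minus strand) and chr2:127335909-127336208 (plus strand), and capitals mark each E box CANNTG, which reads the same on both strands.
Dusp10: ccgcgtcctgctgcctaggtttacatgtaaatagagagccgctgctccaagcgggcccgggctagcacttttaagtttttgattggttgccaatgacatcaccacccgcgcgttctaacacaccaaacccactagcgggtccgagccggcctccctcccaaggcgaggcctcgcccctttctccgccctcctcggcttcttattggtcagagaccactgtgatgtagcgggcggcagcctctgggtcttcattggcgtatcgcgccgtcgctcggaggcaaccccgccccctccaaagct
Map2k6: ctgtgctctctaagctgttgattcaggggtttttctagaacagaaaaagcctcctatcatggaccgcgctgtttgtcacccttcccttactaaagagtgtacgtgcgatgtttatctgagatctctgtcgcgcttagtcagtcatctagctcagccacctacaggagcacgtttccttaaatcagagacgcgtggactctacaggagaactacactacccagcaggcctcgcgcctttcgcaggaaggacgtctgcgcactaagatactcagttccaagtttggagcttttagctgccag
Mapk11: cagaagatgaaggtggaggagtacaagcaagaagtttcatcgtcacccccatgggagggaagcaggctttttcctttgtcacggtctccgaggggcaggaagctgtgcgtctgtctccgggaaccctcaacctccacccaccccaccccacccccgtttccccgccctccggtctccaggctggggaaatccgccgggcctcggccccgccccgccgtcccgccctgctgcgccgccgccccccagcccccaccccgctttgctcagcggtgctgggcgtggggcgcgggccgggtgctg
Dusp2: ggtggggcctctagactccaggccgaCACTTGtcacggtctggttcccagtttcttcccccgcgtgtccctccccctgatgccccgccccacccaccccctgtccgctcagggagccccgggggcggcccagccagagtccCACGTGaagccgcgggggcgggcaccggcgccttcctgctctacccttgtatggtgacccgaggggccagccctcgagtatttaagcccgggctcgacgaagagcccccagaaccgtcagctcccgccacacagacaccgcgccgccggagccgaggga

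Windows were matched for 8 of the 9 genes, the exception being *Dusp4*, and for *Map2k6* and *Mapk14*, which have several, the window nearest the start of the principal transcript was used. The *Dusp2* window held 2 E boxes, CACTTG at position -224 and CACGTG at position -109 from the start. *Dusp6* held CAGTTG and *Mapk14* CATTTG, and the windows of the other 5 genes held none, so that 3 of 8 (37.5%) had a CANNTG match against 72.3% of 32851 windows of the same length. None of the 8 held CAGCTG (16.3% of all windows) or CACCTG and its complement CAGGTG (20.2%), which are both forms of CANNTG. The 2 further windows of *Map2k6*, which were not counted here, each held a CANNTG match, in 1 of them CAGCTG, and so did the further window of *Mapk14*, while the percentages cover all windows of each gene. None of the 8 held the cyclic AMP response element TGACGTCA (1.79%) or the AP-1 motif TGAGTCA or TGACTCA (5.20%), searched on both strands. The GC content of the 8 windows was between 50% and 70.7%, against a median of 52.7% over all windows, and the observed over expected CpG ratio was 0.672 to 0.956 against a median of 0.384. A match is a description of letters and not a site, and its absence refers only to this window.

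Expression is given as the authors' average of DESeq-normalized counts over the libraries of a group. The table used here holds 0 columns of values per library, so no average has a standard deviation, no comparison has a replicate check, and no p-value was computed. A difference is therefore described only by its ratio, and a ratio of 2 or more in either direction was counted as past the threshold. It cannot be said which neighbouring averages differ beyond the spread between libraries. Genes were kept if any group averaged 10 or more, which held for 15536 genes and for all 9 described here. *Id2*, the first of the targeted genes, averaged 6.82 in dKO CD4SP cells and 30.5 in the lymphomas, against 2293 in control CD4SP cells. *Id3* averaged 880 in dKO CD4SP cells, 857 in the lymphomas and 2650 in the libraries labelled Id3 KO, against 1991 in control CD4SP cells. The whole-gene value thus did not show a loss of *Id3* in the libraries labelled Id3 KO, whether or not the targeted allele still gives reads, and they are called by their label throughout. In dKO CD4SP cells and the lymphomas the *Id3* value was lower but not lost, at 0.44 and 0.43 of the control CD4SP value. The T cell gene *Cd3e* averaged 5245 to 9526 in the other groups, against 10429 in control CD4SP cells. *Cd3g* averaged 9143 in dKO CD4SP cells and 6167 in the lymphomas, against 7520 in control CD4SP cells. *Cd4* averaged 6565 in dKO CD4SP cells, 20145 in TFH cells and 4110 in the lymphomas, against 15039 in control CD4SP cells. *Cd8a* averaged 1388 in the lymphomas against 128 in control CD4SP cells, while *Cd8b1* averaged 461 against 588. The tissue, the sort and the genotype of the lymphomas differ together from those of control CD4SP cells. TFH cells differ from control CD4SP cells in tissue, sort and immunization, and from dKO CD4SP cells in genotype as well. The lymphomas differ from dKO CD4SP cells in sort and, for most samples, in tissue. They also differ from both dKO and control CD4SP cells in being tumours. The study describes lymphomas in older mice than those used for CD4SP cells, and in mice of several Cre lines. A difference in age, and possibly in Cre line, thus comes with these comparisons too. In none of these comparisons can the differing factors be told apart. In bulk RNA, fewer cells of a type and less RNA per cell cannot be told apart either.

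**Figure D1:**
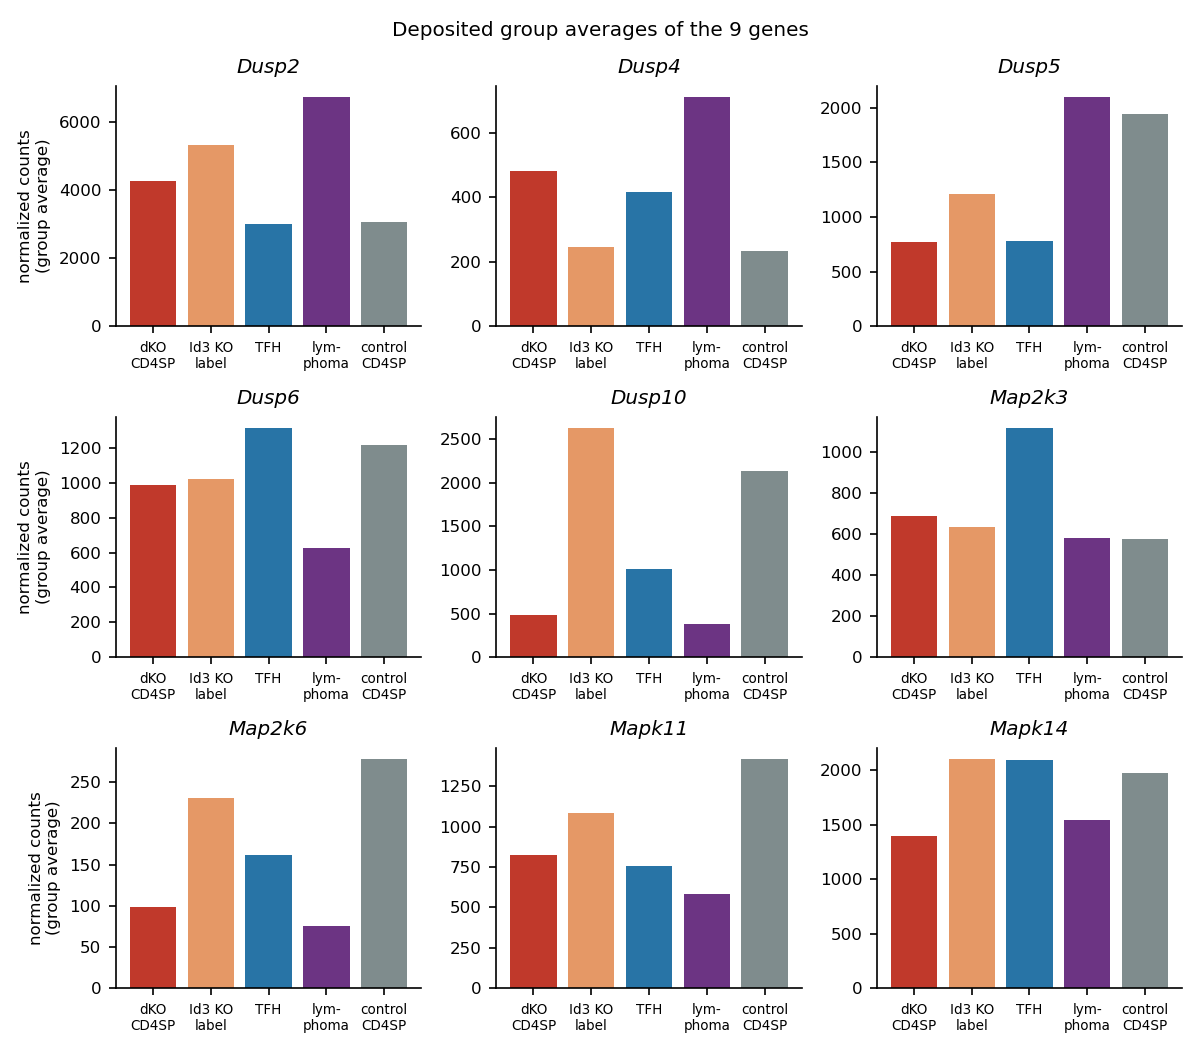
Deposited group averages of the 9 genes in normalized counts (vertical axes, each starting at 0), with 1 bar per group and no error bar because the table gives 1 average per group. *Dusp10* and *Map2k6* were lowest in the lymphomas (381 and 75.9) and next lowest in dKO CD4SP cells (487 and 98.1), while *Dusp2* and *Dusp4* were highest in the lymphomas (6720 and 709).

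*Dusp10* had the widest range of the 9 genes, 6.88-fold between its highest and lowest group. It encodes MKP-5, a phosphatase of p38 and JNK, and lies on mm10 at chr1:184013302-184075636. Its average was 487 normalized counts in dKO CD4SP cells, 2624 in the libraries labelled Id3 KO, 1014 in TFH cells and 381 in the lymphomas, against 2135 in control CD4SP cells. It was low in both groups labelled Id2_Id3_dKO, intermediate in TFH cells, and high in the other CD4SP groups. The averages were 4.38-fold lower in dKO CD4SP cells (log2 ratio -2.13), 5.60-fold lower in the lymphomas (-2.49) and 2.11-fold lower in TFH cells (-1.07), each against control CD4SP cells. Among the kept genes, 2.92% had a lower ratio than *Dusp10* in dKO CD4SP cells and 5.91% in the lymphomas. The libraries labelled Id3 KO differed in the other direction, by a ratio of 1.23 (log2 0.30). The dKO CD4SP average was also 2.08-fold lower than that of TFH cells, so *Dusp10* was below TFH cells as well as below control thymocytes.

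*Dusp4* went the opposite way. It encodes MKP-2, a nuclear phosphatase whose gene is induced by ERK signalling, at chr8:34807297-34819894. It averaged 480 normalized counts in dKO CD4SP cells, 245 in the libraries labelled Id3 KO, 415 in TFH cells and 709 in the lymphomas, against 234 in control CD4SP cells. The dKO CD4SP average was 2.05-fold (log2 1.04) and the lymphoma average 3.03-fold (log2 1.60) that of control CD4SP cells, whereas the TFH average was 1.77-fold and stayed within the threshold. The dKO value lies just past the threshold and was under it when averages were divided by the total of their group. The ratio of *Dusp4* to *Dusp10* within a group, which does not depend on the scaling between groups, was 0.986 in dKO CD4SP cells, 0.0932 in the libraries labelled Id3 KO, 0.410 in TFH cells and 1.86 in the lymphomas, against 0.110 in control CD4SP cells.

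*Dusp2* encodes PAC-1, a nuclear phosphatase of activated lymphocytes, at chr2:127336159-127338376. It averaged 4261 normalized counts in dKO CD4SP cells, 5334 in the libraries labelled Id3 KO, 3000 in TFH cells and 6720 in the lymphomas, against 3067 in control CD4SP cells. TFH cells and control CD4SP cells were near each other (ratio 0.978), and the other groups lay above them. The lymphoma average was 2.19-fold that of control CD4SP cells (log2 1.13), which became 0.93 when divided by group totals. Ratios to control CD4SP cells were 1.39 in dKO CD4SP cells and 1.74 in the libraries labelled Id3 KO, where *Dusp2* had the highest ratio of the 9 genes.

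*Dusp5* encodes a nuclear phosphatase of ERK, at chr19:53529109-53542431, and was the only 1 of the 9 past 2-fold between the lymphomas and dKO CD4SP cells. Its average was 775 normalized counts in dKO CD4SP cells, 1208 in the libraries labelled Id3 KO, 784 in TFH cells and 2093 in the lymphomas, against 1941 in control CD4SP cells. The dKO CD4SP and TFH averages were 2.50-fold and 2.47-fold lower than the control CD4SP average, and the ratio of dKO CD4SP to TFH cells was 0.988. The lymphoma average was 2.70-fold that of dKO CD4SP cells (log2 1.43) and 1.08-fold that of control CD4SP cells. The libraries labelled Id3 KO lay between, 1.61-fold lower than control CD4SP cells.

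*Dusp6* encodes MKP-3, a cytoplasmic phosphatase that acts on ERK and is itself induced by ERK signalling, at chr10:99263231-99267489. It averaged 988 normalized counts in dKO CD4SP cells, 1018 in the libraries labelled Id3 KO, 1311 in TFH cells and 625 in the lymphomas, against 1215 in control CD4SP cells. No ratio to control CD4SP cells passed the threshold. The lymphoma average was the lowest, 1.94-fold below control CD4SP cells (log2 -0.96), and it reached -1.16 when averages were divided by group totals. *Dusp4* and *Dusp6*, both known as genes induced by ERK signalling, thus differed from control CD4SP cells in opposite directions in the lymphomas.

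**Figure D2:**
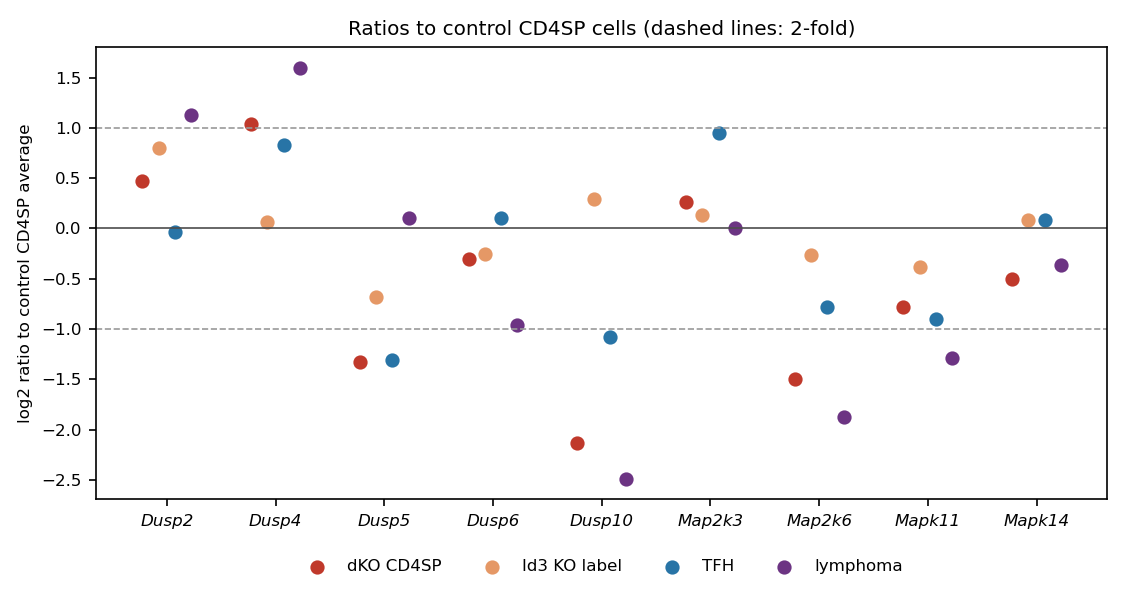
Log2 ratio of each group average to the control CD4SP average (vertical axis) for the 9 genes, with 1 point per group and dashed lines at 2-fold. *Dusp10*, *Map2k6* and *Mapk11* lay below 0 in dKO CD4SP cells (-2.13, -1.50 and -0.78) and further below in the lymphomas (-2.49, -1.87 and -1.29), while *Dusp5* lay at -1.32 in dKO CD4SP cells and 0.11 in the lymphomas. All 4 ratios of a gene share the same control average.

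Levels of different phosphatases were compared per kilobase of exon over the 10 MAPK phosphatases of the DUSP family, which adds *Dusp1*, *Dusp7*, *Dusp8*, *Dusp9* and *Dusp16*. *Dusp2* made up 60.6% of the summed level per kilobase in dKO CD4SP cells, 52.3% in the libraries labelled Id3 KO, 28.3% in TFH cells and 55.1% in the lymphomas, against 36.5% in control CD4SP cells. It was the most abundant phosphatase of the family in each group other than TFH cells. There *Dusp1*, an immediate early gene that encodes the p38 and JNK phosphatase MKP-1, made up 41.7%, against 8.70% in control CD4SP cells. The *Dusp10* share was 4.56% in dKO CD4SP cells, 17.0% in the libraries labelled Id3 KO, 6.30% in TFH cells and 2.06% in the lymphomas, against 16.7% in control CD4SP cells. The *Dusp5* share was 8.93% in dKO CD4SP cells and 13.9% in the lymphomas, against 18.7% in control CD4SP cells. Control CD4SP cells thus had *Dusp2*, *Dusp5* and *Dusp10* as their leading phosphatases per kilobase, and dKO CD4SP cells had *Dusp2* far above each of the others.

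**Figure D3:**
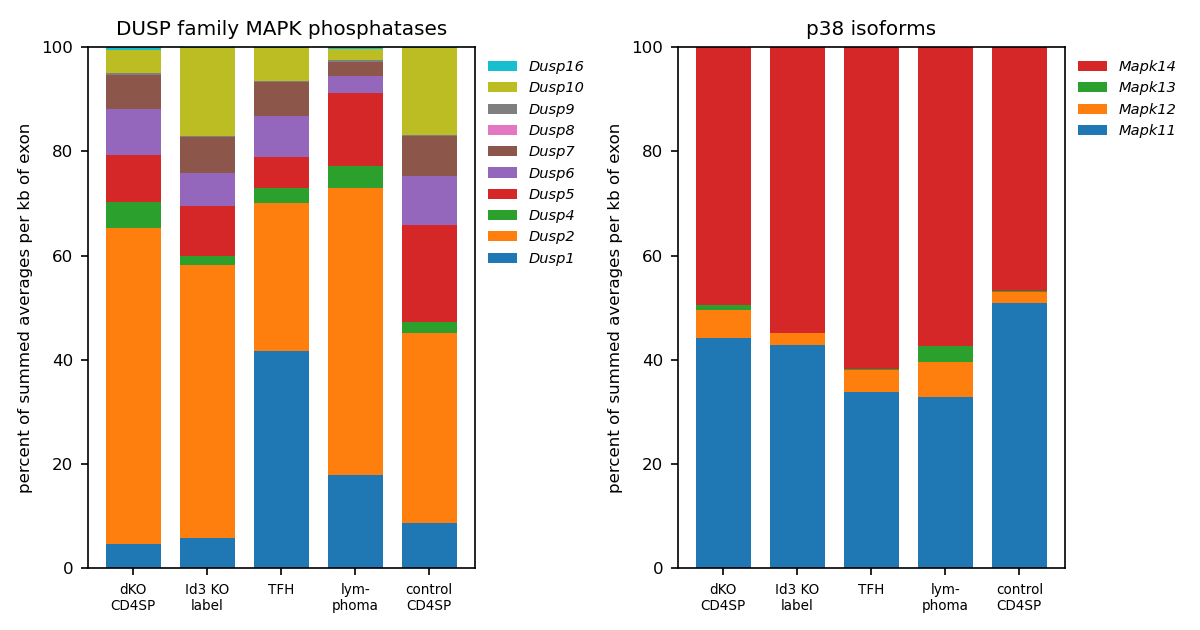
Percent of the summed averages per kilobase of exon (vertical axis) taken by each of 10 DUSP family MAPK phosphatases (left) and each of the p38 isoforms (right), with 1 bar per group. *Dusp10* took 4.56% in dKO CD4SP cells and 2.06% in the lymphomas against 16.7% in control CD4SP cells, and *Mapk11* took 44.2% and 32.8% against 50.9%.

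The MAPK kinases of p38 differed from each other. MKK3 and MKK6, encoded by *Map2k3* (chr11:60932033-60952811) and *Map2k6* (chr11:110399122-110525522), phosphorylate and activate p38. *Map2k6* averaged 98.1 normalized counts in dKO CD4SP cells, 231 in the libraries labelled Id3 KO, 161 in TFH cells and 75.9 in the lymphomas, against 277 in control CD4SP cells. It was highest in control CD4SP cells, and the averages were 2.83-fold lower in dKO CD4SP cells (log2 -1.50), 3.65-fold lower in the lymphomas (-1.87) and 1.72-fold lower in TFH cells (-0.78). *Map2k3* averaged 691 normalized counts in dKO CD4SP cells, 633 in the libraries labelled Id3 KO, 1115 in TFH cells and 579 in the lymphomas, against 577 in control CD4SP cells. Its ratio to control CD4SP cells was 1.20 in dKO CD4SP cells and 1.00 in the lymphomas, and the highest was 1.93 in TFH cells, short of the threshold. Per kilobase of exon, the ratio of *Map2k3* to *Map2k6* was 7.32 in dKO CD4SP cells, 2.85 in the libraries labelled Id3 KO, 7.19 in TFH cells and 7.93 in the lymphomas, against 2.16 in control CD4SP cells. This ratio was therefore over 3 times the control value in dKO CD4SP cells (3.38), TFH cells (3.33) and the lymphomas (3.67). The numerator was near its control level in dKO CD4SP cells and the lymphomas, and in TFH cells both averages differed from control in opposite directions.

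The p38 kinases are encoded by *Mapk14* (p38 alpha, chr17:28691329-28748406) and *Mapk11* (p38 beta, chr15:89142486-89149628). *Mapk11* averaged 822 normalized counts in dKO CD4SP cells, 1082 in the libraries labelled Id3 KO, 757 in TFH cells and 581 in the lymphomas, against 1415 in control CD4SP cells. Control CD4SP cells had the highest average, and the lymphoma average was 2.44-fold lower (log2 -1.29), the only *Mapk11* ratio past the threshold. It was 1.72-fold lower in dKO CD4SP cells and 1.87-fold lower in TFH cells. *Mapk14* averaged 1395 normalized counts in dKO CD4SP cells, 2098 in the libraries labelled Id3 KO, 2093 in TFH cells and 1539 in the lymphomas, against 1973 in control CD4SP cells. Its range over the groups was the narrowest of the 9 genes. It was 1.41-fold lower in dKO CD4SP cells and 1.28-fold lower in the lymphomas. Per kilobase of exon, the ratio of *Mapk14* to *Mapk11* was 1.12 in dKO CD4SP cells, 1.28 in the libraries labelled Id3 KO, 1.83 in TFH cells and 1.75 in the lymphomas, against 0.920 in control CD4SP cells. Without division by exon length the ratio in control CD4SP cells was 1.39, so which isoform leads there depends on that division.

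The other p38 isoforms, *Mapk12* (p38 gamma) and *Mapk13* (p38 delta), are neighbours of these genes on the same strand, *Mapk12* 1.78 kb from *Mapk11* and *Mapk13* 20.9 kb from *Mapk14*, and were described after their values were seen. *Mapk12* averaged 131 normalized counts in dKO CD4SP cells, 75.8 in the libraries labelled Id3 KO, 121 in TFH cells and 158 in the lymphomas, against 79.7 in control CD4SP cells. *Mapk13* averaged 19.3 in dKO CD4SP cells, 3.76 in the libraries labelled Id3 KO, 3.26 in TFH cells and 58.3 in the lymphomas, against 2.98 in control CD4SP cells. It averaged under 10 in control CD4SP cells and passed the filter only through dKO CD4SP cells and the lymphomas, where it was high. The lymphomas thus had the lowest *Mapk11* average of the groups together with the highest *Mapk12* and *Mapk13* averages. *Mapk11* and *Mapk14* still made up most of the summed p38 level per kilobase in the lymphomas, with *Mapk12* at 6.79% and *Mapk13* at 3.02%, against 2.18% and 0.0983% in control CD4SP cells.

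Comparison by comparison, the question was which of the 9 genes differ in thymocytes and in lymphomas labelled Id2_Id3_dKO, and in TFH cells. In dKO CD4SP cells against control CD4SP cells, 1 of 9 genes (*Dusp4*) was at least 2-fold higher and 3 (*Dusp5*, *Dusp10* and *Map2k6*) at least 2-fold lower, where 15.1% and 10.9% of all kept genes were. The median log2 ratio of the 9 was -0.50, against 0.02 over all kept genes. In the libraries labelled Id3 KO, 0 of 9 genes passed in either direction, with 6.32% of all kept genes higher and 5.78% lower, and the median was 0.06 against -0.01. In TFH cells, 0 were higher and 2 (*Dusp5* and *Dusp10*) lower, where 12.4% and 10.9% of kept genes were, with a median of -0.03 against -0.02. In the lymphomas, 2 genes (*Dusp2* and *Dusp4*) were higher and 3 (*Dusp10*, *Map2k6* and *Mapk11*) lower, where 18.7% and 18.2% of kept genes were, with a median of -0.36 against 0.02. These comparisons share the control average, so a gene that is high or low there moves in all of them.

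The remaining comparisons did not use the control average. Between the lymphomas and dKO CD4SP cells, 1 gene (*Dusp5*) was higher and 0 lower, where 11.6% and 15.2% of kept genes were, and the median log2 ratio was -0.25 against 0.03. *Dusp6*, at a ratio of 0.633, and *Mapk11*, at 0.706, were the lowest of the 9 there. Between dKO CD4SP cells and TFH cells, 0 genes were higher and 1 (*Dusp10*) lower, where 16.2% and 13.8% of kept genes were, with a median of -0.41 against 0.01. *Map2k3* was 1.61-fold and *Map2k6* 1.64-fold lower in dKO CD4SP cells than in TFH cells, and *Mapk14* had a log2 ratio of -0.59, while *Mapk11* was near equal (ratio 1.09). Counts of 1 of 9 genes lay near these shares of all genes, and so did the 2 higher genes in the lymphomas. The 3 lower genes in dKO CD4SP cells and in the lymphomas and the 2 lower genes in TFH cells lay above them, which was not tested. The 9 genes were chosen with earlier results of these data known, so these counts cannot be read as a result about the set.

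Around these genes, 88 other genes of the MAPK pathways in 9 lists were examined, of which 85 were kept. In dKO CD4SP cells 19 (22.4%) were at least 2-fold higher and 8 (9.41%) lower than in control CD4SP cells, where 15.1% and 10.9% of all kept genes were. In the lymphomas 20 (23.5%) were higher and 11 (12.9%) lower, beside 18.7% and 18.2% of all kept genes. In TFH cells 15 (17.6%) were higher and 9 (10.6%) lower, beside 12.4% and 10.9%, and in the libraries labelled Id3 KO 10 (11.8%) were higher and 1 (1.18%) lower, beside 6.32% and 5.78%. In each of these comparisons some of the higher genes averaged under 10 in control CD4SP cells. They were kept only through other groups, where they were high. These shares were not tested, and the lists too were chosen with earlier results of these data known. In dKO CD4SP cells and in the lymphomas the list with the median furthest from control was that of 10 ERK feedback genes, the Sprouty and Spred inhibitors and other genes that ERK signalling induces. In dKO CD4SP cells 7 of 10 were higher and 1 lower, and in the lymphomas likewise 7 and 1, beside the all-gene shares just given. Of these 7, 2 in each comparison averaged under 10 in control CD4SP cells and so were kept only through groups where they were high. The list had median log2 ratios (1 added to both averages) of 1.94 and 2.78, against 0.02 over all kept genes in each. *Etv5*, an ETS factor induced by ERK, averaged 1191 normalized counts in dKO CD4SP cells and 3678 in the lymphomas, against 286 in control CD4SP cells. *Spry2* averaged 144 in dKO CD4SP cells and 197 in the lymphomas, against 23.1 in control CD4SP cells. The 1 lower gene was *Spred3* in dKO CD4SP cells, at 16.9 against 67.7 in control CD4SP cells, and *Spred1* in the lymphomas. *Dusp4* and *Dusp6* are also induced by ERK signalling but were not in this list. Compared with control CD4SP cells, *Dusp4* was higher in dKO CD4SP cells and the lymphomas, and *Dusp6* was lower (988 and 625 against 1215). In TFH cells 2 of the 10 ERK feedback genes were higher and 4 lower, with a median of -0.61 against -0.02.

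**Figure D4:**
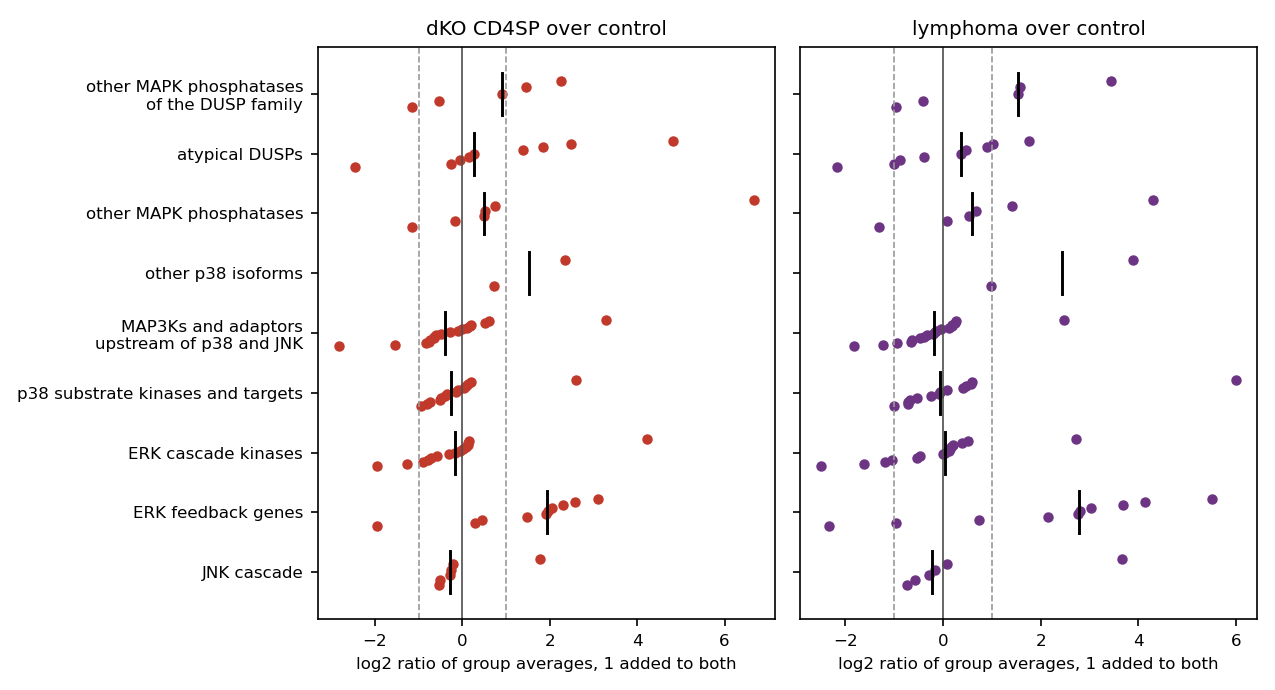
Log2 ratios of the group averages to control CD4SP cells, 1 normalized count added to both (horizontal axis), for the 85 kept genes of 9 MAPK pathway lists in dKO CD4SP cells (left) and the lymphomas (right). Points are genes, the black bars are medians of a list and the dashed lines mark 2-fold. The median of the ERK feedback genes lay at 1.94 and 2.78, while those of the ERK cascade kinases (-0.16 and 0.04) and of the p38 substrate kinases and targets (-0.25 and -0.07) lay near 0.

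Other phosphatases of MAPKs also differed from control CD4SP cells. *Ptpn5*, a tyrosine phosphatase of ERK and p38 known from neurons, averaged 2980 normalized counts in dKO CD4SP cells and 580 in the lymphomas, against 28.3 in control CD4SP cells, a 105-fold and a 20.5-fold difference. It was also higher in the libraries labelled Id3 KO (199) and in TFH cells (173). *Dusp3*, an atypical DUSP that acts on ERK and JNK, averaged 131 in dKO CD4SP cells, 13.9 in the libraries labelled Id3 KO, 5.77 in TFH cells and 7.74 in the lymphomas, against 3.68 in control CD4SP cells. Its high average was thus in dKO CD4SP cells and not in the lymphomas. *Dusp22* averaged 22.1 in dKO CD4SP cells, 28.2 in TFH cells and 27.2 in the lymphomas, against 127 in control CD4SP cells. *Dusp1* averaged 541 in dKO CD4SP cells, 7311 in TFH cells and 3591 in the lymphomas, against 1209 in control CD4SP cells. For the lists that follow, 15.1% of all kept genes were higher and 10.9% lower in dKO CD4SP cells, and 18.7% and 18.2% in the lymphomas. Of the 5 other DUSP family phosphatases, 2 were higher and 1 lower in dKO CD4SP cells (median log2 0.90) and 3 higher and 0 lower in the lymphomas (1.54). The 2 higher in dKO CD4SP cells, *Dusp8* and *Dusp9*, averaged 19.2 and 20.5 there, against 6.42 and 3.48 in control CD4SP cells, and passed the filter only through groups where they were high. The same holds for *Dusp9* among the 3 higher in the lymphomas. The summed average of the 5 was lower, at 1473 in dKO CD4SP cells against 2389 in control CD4SP cells. Of 9 atypical DUSPs, 4 were higher and 1 lower in dKO CD4SP cells (0.26) and 3 higher and 2 lower in the lymphomas (0.38), and 3 of the higher genes in each comparison averaged under 10 in control CD4SP cells. Of 6 other MAPK phosphatases, 1 was higher and 1 lower in dKO CD4SP cells (0.50) and 2 higher and 1 lower in the lymphomas (0.59). Of these 2 higher genes, 1 averaged under 10 in control CD4SP cells.

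Upstream of p38 and JNK, 1 of 18 kept MAP3Ks and adaptors was higher and 2 lower in dKO CD4SP cells (median -0.39), and 1 was higher and 2 lower in the lymphomas (-0.18). In both, 5.56% were thus higher and 11.1% lower, near or below the shares of all kept genes. The higher gene in both was *Gadd45g*, an activator of the MAP3K MEKK4, which averaged 1159 normalized counts in dKO CD4SP cells and 659 in the lymphomas, against 117 in control CD4SP cells. The related *Gadd45b* was lower in both, at 38.02 in dKO CD4SP cells and 77.1 in the lymphomas against 277 in control CD4SP cells, and it averaged 1747 in TFH cells. *Map3k3*, which encodes MEKK3, averaged 524 in dKO CD4SP cells and 653 in the lymphomas, against 1526 in control CD4SP cells. Downstream, 1 of 14 p38 substrate kinases and targets was higher in dKO CD4SP cells and 0 were lower, and 1 was higher and 1 lower in the lymphomas. *Mef2c*, a transcription factor phosphorylated by p38, was the higher one, at 110 in dKO CD4SP cells and 1181 in the lymphomas against 17.3 in control CD4SP cells. *Zfp36*, which encodes an mRNA decay factor regulated through p38 and MK2, averaged 8420 in TFH cells against 2541 in control CD4SP cells.

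Of the 15 ERK cascade kinases, 1 was higher and 2 lower in dKO CD4SP cells, and 1 was higher and 4 lower in the lymphomas. The lower ones made up 13.3% and 26.7%, where 10.9% and 18.2% of all kept genes were lower, and the higher ones 6.67%, below the shares of all kept genes. *Rps6ka2*, an ERK substrate kinase of the RSK family, averaged 2336 normalized counts in dKO CD4SP cells and 827 in the lymphomas, against 125 in control CD4SP cells. *Mapk7*, which encodes ERK5, averaged 440 in dKO CD4SP cells and 185 in the lymphomas, against 1055 in control CD4SP cells. *Ksr1*, a scaffold of the ERK cascade, averaged 1888 in TFH cells against 366 in control CD4SP cells. Of 6 kept JNK cascade genes, 1 was higher and 0 lower both in dKO CD4SP cells and in the lymphomas. In the lymphomas *Ier3*, an ERK-induced gene, averaged 186 against 3.08 in control CD4SP cells, and *Spred1*, an inhibitor of the RAS to ERK signal, averaged 65.3 against 336.

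Markers of other cells moved with some of these groups. The summed average of 4 B cell genes was 57.9 in dKO CD4SP cells, 29.7 in the libraries labelled Id3 KO, 366 in TFH cells and 62.9 in the lymphomas, against 52.9 in control CD4SP cells, and 4 of 4 were at least 2-fold higher in TFH cells. The summed average of 4 myeloid genes was 220 in dKO CD4SP cells, 201 in the libraries labelled Id3 KO, 161 in TFH cells and 505 in the lymphomas, against 129 in control CD4SP cells. The 4 did not move together, since in dKO CD4SP cells *Itgam* averaged 181 against 69.4 in control CD4SP cells while *Cd68* averaged 24.6 against 49.6, and *Itgam* was lower in TFH cells (28.9) and in the libraries labelled Id3 KO (45.8). The libraries labelled Id3 KO had 2 of 4 at least 2-fold higher and 0 lower, and TFH cells 2 higher and 1 lower. *Lyz2* averaged 65.1 in the libraries labelled Id3 KO and 12.2 in TFH cells, against 3.82 in control CD4SP cells. *Csf1r* averaged 25.9 and 21.3 in these groups, against 5.86. In the lymphomas 3 of 4 were at least 2-fold higher. Of the NK cell genes, *Ncr1* was at or near 0 in all groups, and *Klrb1c* averaged 38.1 in dKO CD4SP cells, 230 in TFH cells and 52.4 in the lymphomas, against 73.7 in control CD4SP cells. The sums of 3 proliferation genes were 7239 in dKO CD4SP cells and 10485 in the lymphomas, against 5135 in control CD4SP cells. Of 3 thymic epithelial genes, *Epcam* averaged 593 in dKO CD4SP cells and 3797 in the lymphomas, against 70.7 in control CD4SP cells, while *Foxn1* averaged 3.55 in dKO CD4SP cells and 1.88 in the lymphomas, against 1.99 in control CD4SP cells. The sums of 3 naive T cell genes were 6560 in dKO CD4SP cells, 6388 in TFH cells and 6691 in the lymphomas, against 17369 in control CD4SP cells. Those of 5 TFH genes were 12648 in dKO CD4SP cells, 23475 in TFH cells and 7644 in the lymphomas, against 3275 in control CD4SP cells. In dKO CD4SP cells 3 of the 5 were at least 2-fold higher and 0 lower. The TFH gene *Bcl6* averaged 549 in dKO CD4SP cells and 3543 in TFH cells, against 530 in control CD4SP cells. The part of these cells and states in the ratios of the 9 genes was not tested.

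Genes with the pattern most like that of each of the 9 genes were taken by the root mean square difference of their log2 averages over the 5 groups, each centred on its own mean, among 10647 genes with a highest average of at least 100. With 5 group averages, close patterns are common, and nothing follows from them about shared control. The closest to *Dusp10* was *Atn1* (0.134), with averages of 817 in dKO CD4SP cells and 650 in the lymphomas against 2950 in control CD4SP cells, followed by *Dirc2* and *Akap2*. The closest to *Map2k6* was *Uap1* (0.0970), followed by *Gm11346* and *Gm28035*, and to *Mapk11* it was *Zc4h2* (0.0512), followed by *Spata5l1* and *Rgs19*. *Dusp4* was closest to *Esr1* (0.0532), *Repin1* and *9430038I01Rik*, and *Dusp2* to *Rrp12* (0.0897), *Rpl13* and *Chd7*. *Map2k3* was closest to *Rps6ka4* (0.0490), which encodes the p38 and ERK substrate kinase MSK2, *Siah2* and *Arhgap10*. *Dusp5* was closest to *Sh3pxd2a* (0.155), *Sv2a* and *Phyhd1*, *Dusp6* to *Ppp4r1l-ps* (0.0370), *Dgcr6* and *Zfp513*, and *Mapk14* to *Slc12a9* (0.0266), *Tubgcp6* and *Zfp729a*. Among the 9 genes themselves the closest pair was *Dusp6* and *Mapk14* (0.288), *Map2k6* was nearest to *Mapk11* (0.359), and the most distant pair was *Dusp4* and *Dusp10* (1.70).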

How the data were processed

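RNA was sequenced from sorted mouse T cells in 20 samples of 5 groups, which were taken from the sample labels. The authors aligned strand-specific Illumina reads with the OSA algorithm of Array Studio (mm10), took abundances from RSEM and normalized these with DESeq. Versions of these tools were not given in the sources used here. As deposited by the authors, the signal of a gene in a group is the average of its DESeq-normalized RSEM counts, and 0 columns hold values per library. By the study's methods, genes whose abundance was under 10 throughout were removed, while 5285 of the 39179 genes listed were at 0 in all groups. The table also holds 12 columns of the authors' own comparisons with control (fold changes, p-values and false discovery rates), which were not used. Library depth is thus unknown. Over all genes, the 5 averages gave totals of 13386015 to 15497262 normalized counts per group.

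Genes were kept where at least 1 of 5 averages reached 10. Ratios were taken between averages without a pseudocount, and a ratio of at least 2 in either direction was counted. The edgeR fit planned for values per library was not run, so no test was made. Alternatives were pseudocounts of 1 and 10, centring on the median, division by group totals, no filter, a minimum of 50 and a fold of 1.5. Counting was tested on simulated data. Gene symbols, positions and exon lengths are from GENCODE M21 (GRCm38, the same assembly as mm10), and levels per kilobase use the merged exons of a gene.

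The 9 genes, the pathway lists and the marker lists were chosen with earlier results of these data known. Named genes are the 9, the targeted genes, pathway genes with a ratio of at least 2 in either direction to control and a higher average of at least 100, and the 3 genes most like each of the 9. *Mapk12*, *Mapk13*, *Dusp8*, *Dusp9* and *Spred3* fall outside this rule and were named after their values were seen. Python 3.11.15, numpy 2.4.6, pandas 2.3.3 and matplotlib 3.10.9 were used.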

Additional observations from a re-analysis of the deposited data

How the results depend on the processing

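No paired analysis was possible because the averages were deposited per group and no value per library was used. For the same reason fits without each replicate in turn were not run. The limits are therefore the missing spread between libraries, the unknown depth and the scaling between groups. Dividing averages by group totals shifted log2 ratios by -0.20 for the lymphomas over control CD4SP cells, by -0.12 for the lymphomas over dKO CD4SP cells, and by less than 0.1 in the other comparisons. It left 0 genes in place of 1 at least 2-fold higher in dKO CD4SP cells than in control CD4SP cells, and 1 in place of 2 higher in the lymphomas than in control CD4SP cells, with *Dusp2* at 0.93 and *Dusp6* at -1.16, while *Dusp5* in the lymphomas went to -0.09. Counting at 1.5-fold gave 1 gene higher and 1 lower in the libraries labelled Id3 KO, 2 higher and 4 lower in TFH cells, each against control CD4SP cells, 2 higher and 1 lower in the lymphomas than in dKO CD4SP cells, and 4 lower in dKO CD4SP cells than in TFH cells. No log2 ratio past the threshold changed sign. The filters cannot change a value of the 9 genes. Of 216 log2 ratios under the 4 alternatives that can change them, 197 moved by less than 0.1, and 51 of 60 counts of the 9 genes under the 5 that can change these stayed within 1.5 times. The share of all genes past the threshold moved by more than 1.5 times in 29 of 84 cases. For dKO CD4SP over control CD4SP cells, for example, it was 24.1% higher and 20.7% lower with no filter, and 9.65% and 6.76% with a pseudocount of 10, against 15.1% and 10.9% as reported.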
